A study of Drosophila melanogaster with 3 samples.

Results

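The vacuolar ATPase (V-ATPase) and Rab trafficking genes were taken as all protein-coding genes of the Ensembl dm6 annotation whose symbol starts with Vha, or with Rab followed by a digit or X. This gave 69 of 13945 protein-coding genes, namely 33 Vha and 36 Rab genes. Of the Rab genes, 33 encode Rab GTPases and 3 (Rab3-GAP, Rab3-GEF and Rab3GAP1) encode regulators that share the name. The question was whether caup lay at the promoters of either family. It was also asked whether broadly expressed paralogues differed in this from tissue-limited ones. Binding of caup, a homeobox factor of the Iroquois complex, was mapped by ChIP-seq with an anti-GFP antibody. The material was whole embryos of both sexes, 0 to 24 h old, from 1 transgenic line that stably makes caup with GFP at its C terminus, and the chromatin was sonicated to fragments of 200 to 800 bp. The study holds 1 group of 3 biological replicates, all from this line, and no untagged group was analysed here. What drives the transgene is not given in the sources used here, and whole embryos do not tell in which cells a site was bound.

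The V-ATPase is a rotary proton pump. Its cytosolic V1 sector hydrolyses ATP and its membrane V0 sector carries protons, which acidifies endosomes, lysosomes and secretory vesicles and, in insects, drives fluid transport across epithelia. Many subunits have several paralogues in Drosophila, of which one is usually made in most tissues and the others in few, often the testis. Rab proteins are small GTPases that switch between a GTP-bound and a GDP-bound form, and each marks a membrane compartment and recruits its tethers and motors. Guanine nucleotide exchange factors turn them on and GTPase-activating proteins turn them off.

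The optimal set held 6056 peaks, and each summit was given to the nearest annotated transcription start site within 1 kb, here termed a promoter summit. The signal value of a peak is the authors' enrichment statistic, on a scale that is not given, and is comparable within 1 list only. Over the optimal set it ran from 209 to 6496 with a median of 333. Each replicate list held 30000 regions, and its 6056 regions of highest signal value are termed its top list. The lists give no read counts, so the depth of the libraries is unknown. The labels call the 3 replicates biological and say no more of how embryos were pooled, so p-values measure the spread between these samples only.

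Promoter summits were present at 7 of 33 Vha genes (21.2%) and 11 of 36 Rab genes (30.6%), against 20.4% of all protein-coding genes. The Vha share was thus close to the background of the genome, and most members of both families had no promoter summit. The 18 genes held 20 summits, since Vha55 and Rab14 had 2 each. DNA of the 3 strongest Vha and 3 strongest Rab summits on 2L, 3L and 3R is shown first, followed by 3 further summits that held a motif. Each run is 5′ to 3′ on the strand of the gene, read from RefSeq release 6 (dm6), reaches up to 100 bases to each side of the summit and was shortened where it entered untranslated exons. Capitals mark letters that match any of 8 motifs, spelled out further on.
Vha55, chr3R:12627815-12627933, minus strand: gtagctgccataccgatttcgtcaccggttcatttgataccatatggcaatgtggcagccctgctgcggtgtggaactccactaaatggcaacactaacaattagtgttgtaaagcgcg
Vha68-1, chr2L:13004128-13004328, minus strand: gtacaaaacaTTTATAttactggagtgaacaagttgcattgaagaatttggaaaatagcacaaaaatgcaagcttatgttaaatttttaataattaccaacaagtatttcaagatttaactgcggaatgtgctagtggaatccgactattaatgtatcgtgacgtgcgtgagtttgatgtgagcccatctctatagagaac
Vha68-2, chr2L:12974083-12974283, plus strand: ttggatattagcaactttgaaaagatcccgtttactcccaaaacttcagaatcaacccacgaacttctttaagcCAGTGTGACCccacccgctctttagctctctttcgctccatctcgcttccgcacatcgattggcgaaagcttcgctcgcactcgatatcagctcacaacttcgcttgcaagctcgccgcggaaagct
Rab5, chr2L:2363655-2363855, minus strand: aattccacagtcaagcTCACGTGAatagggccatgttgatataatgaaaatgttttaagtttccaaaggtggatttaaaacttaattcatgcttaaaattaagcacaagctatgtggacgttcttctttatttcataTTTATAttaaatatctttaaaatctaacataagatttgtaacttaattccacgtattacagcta
Rab8, chr3L:19871064-19871153, minus strand: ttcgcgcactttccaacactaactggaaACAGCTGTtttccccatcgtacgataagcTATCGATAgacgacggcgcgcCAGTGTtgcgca
Rab1, chr3R:21269046-21269187, minus strand: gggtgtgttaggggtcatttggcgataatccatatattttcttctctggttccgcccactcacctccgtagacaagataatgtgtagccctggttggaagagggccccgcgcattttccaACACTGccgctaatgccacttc
VhaM9.7-c, chr3L:4186851-4186985, minus strand: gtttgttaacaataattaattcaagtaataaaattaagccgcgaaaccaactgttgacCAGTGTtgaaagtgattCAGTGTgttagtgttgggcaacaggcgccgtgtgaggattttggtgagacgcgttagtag
Rab11, chr3R:21111279-21111422, plus strand: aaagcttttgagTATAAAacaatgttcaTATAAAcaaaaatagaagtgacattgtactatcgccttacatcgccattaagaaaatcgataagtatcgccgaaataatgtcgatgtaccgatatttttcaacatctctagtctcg
Vha55, second summit, chr3R:12626970-12627170, minus strand: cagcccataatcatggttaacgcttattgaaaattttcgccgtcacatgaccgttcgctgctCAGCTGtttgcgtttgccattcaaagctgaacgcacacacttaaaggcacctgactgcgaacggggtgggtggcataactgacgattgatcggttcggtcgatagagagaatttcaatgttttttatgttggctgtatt

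In the V1 sector, 4 of 13 genes had a promoter summit (30.8%), against 20.4% of protein-coding genes. Vha55 (FBgn0005671), the B subunit of the catalytic head, carried the strongest, 4 bp upstream of its start site on 3R, with a pooled signal value of 553. The regions that held this summit had signal values of 191, 147 and 184 in replicates 1, 2 and 3, where they ranked 1274, 1229 and 1981. Those ranks lay well inside all 3 top lists. A second Vha55 summit in an intron, 631 bp downstream of an internal start site, had a pooled signal value of 225. It lay in the top list of replicate 3 only, with ranks of 6489, 7471 and 5297.

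Both broadly expressed genes for the catalytic A subunit were marked. Vha68-1 (FBgn0265262) had a summit 121 bp upstream with a pooled signal value of 413, and replicate signal values of 107, 138 and 183 in replicates 1, 2 and 3. Its start site lies 373 bp from that of mTor, the growth-regulating kinase. Vha68-2 (FBgn0263598) had one 139 bp upstream with a pooled signal value of 390, and replicate signal values of 170, 106 and 114. Both summits were in all 3 top lists, at ranks from 1375 to 4340. Vha68-3, a testis paralogue that lies next to Vha68-2, had no region given to its start site in any list. Vha26, the E subunit of the stator, had a summit 98 bp upstream with a pooled signal value of 273. The regions that held it ranked 8159, 1645 and 4952, so replicate 1 placed it outside its top list.

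The other V1 genes had no optimal promoter summit. The region at Vha13, the G subunit, ranked 6626 in the pooled list, just beyond the optimal set, and its own replicate ranks were 5927, 2757 and 7192. For VhaSFD, the regulatory H subunit, the pooled rank was 16028, and for Vha44, the C subunit, it was 16882. Neither Vha14-1 nor Vha36-1, the broadly expressed F and D subunit genes, had any region given to their start sites in the pooled list. Of their tissue-limited paralogues, Vha14-2 and Vha36-2 had none in any list, and Vha36-3 had weak ones in replicates 1 and 2 only, ranked 28079 and 23076.

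In the V0 sector, 3 of 18 genes had a promoter summit (16.7%), below the 20.4% of protein-coding genes. Vha16-1 (FBgn0262736), the main proteolipid of the rotating ring, had one 3 bp upstream of its start site with a pooled signal value of 439, and replicate signal values of 197, 123 and 131 in replicates 1, 2 and 3. All 3 top lists held it, at ranks of 1204, 1662 and 3492. It also had 2 intronic summits more than 1 kb from any start site, with pooled signal values of 332 and 327. Its paralogues Vha16-2, Vha16-3, Vha16-4 and Vha16-5 had no region given to their start sites in any list.

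Vha100-2 (FBgn0028670), the broadly expressed a subunit that couples the sectors, had a summit 8 bp inside its 5′ untranslated exon with a pooled signal value of 300. The replicate signal values were 134, 105 and 78.2 in replicates 1, 2 and 3, and the ranks of 2437, 2173 and 7358 put it outside the top list of replicate 3. The summit also lies in an intron of Vti1b. The other a subunit genes were weaker. Vha100-5 ranked 8853 in the pooled list, Vha100-1, which is known from neurons, ranked 9757 and Vha100-4, of the midgut, 14183, and Vha100-3, of the testis, had no region. The last V0 gene was VhaM9.7-c, an e subunit gene, whose summit lay 20 bp upstream with a pooled signal value of 307. Replicate signal values were 117, 59.0 and 119 in replicates 1, 2 and 3, at ranks of 3090, 5354 and 4057. It was thus in all 3 top lists, and it lies within introns of Teh2 and CG18675. Of the other e subunit genes, VhaM9.7-a ranked 11455 in the pooled list, and VhaM9.7-b and VhaM9.7-d had no region there. VhaPPA1-1, a further proteolipid, ranked 11658, while VhaPPA1-2 had no region. For VhaAC39-1 and VhaAC39-2, the d subunits, the pooled ranks were 12289 and 12737, so the broadly expressed and the testis gene hardly differed in that list. The replicates varied more. VhaAC39-1 had no region in replicate 1 and ranked 16877 and 13245 in replicates 2 and 3. VhaAC39-2 ranked 11853, 8953 and 17467 in replicates 1, 2 and 3. In the pooled list the accessory genes VhaAC45 and VhaAC45RP ranked 10443 and 14290.

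**Figure D1:**
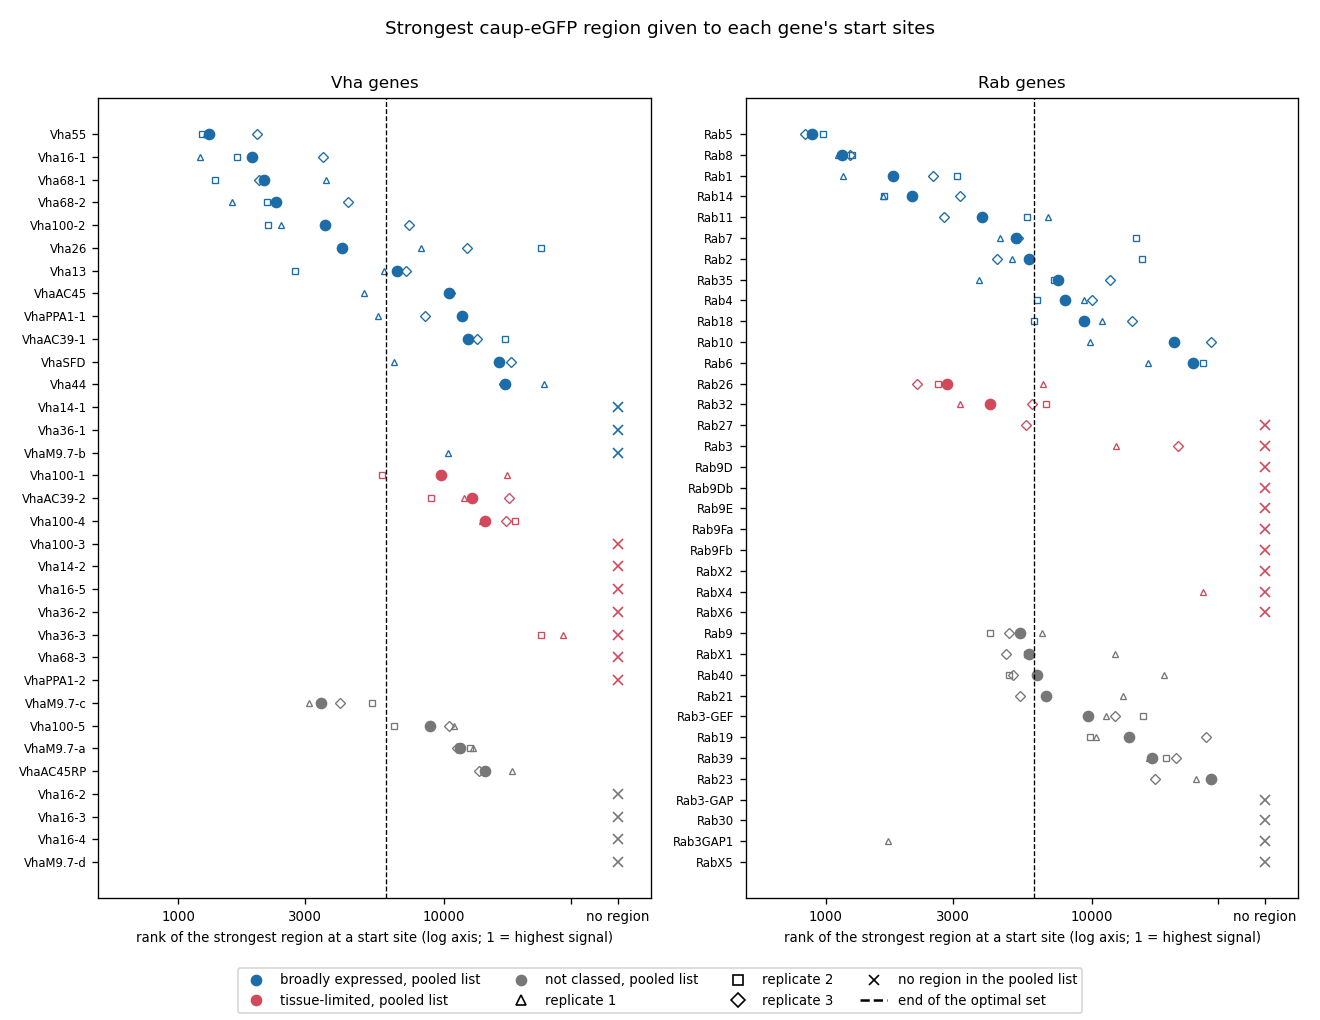
Rank of the strongest region given to a start site of each Vha gene (left) and Rab gene (right), on a log axis where 1 is the highest signal value; filled points are the pooled list, open symbols the 3 replicate lists, crosses genes with no pooled region, and the dashed line the end of the optimal set at rank 6056. Broadly expressed genes reach farthest left in both families, from Vha55 at 1301 and Rab5 at 885, and most tissue-limited genes have no pooled region.

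Among Rab genes, those of early and recycling endosomes had promoter summits at 3 of 6, against 20.4% of protein-coding genes. Rab5 (FBgn0014010), which directs fusion at early endosomes, carried the strongest of either family, with a pooled signal value of 678, above 85.4% of the optimal peaks. It lay in an intron, 251 bp upstream of the nearest of 6 Rab5 start sites. Replicate signal values there were 229, 166 and 304 in replicates 1, 2 and 3, at ranks of 876, 978 and 835. Rab14 had a stronger summit 620 bp inside the gene (412) and a weaker one 23 bp inside it (231). The stronger had replicate signal values of 166, 123 and 139 in replicates 1, 2 and 3 and lay in all 3 top lists. The weaker lay only in that of replicate 1, where it ranked 3934. At Rab11, the recycling endosome Rab, a summit 29 bp upstream had a pooled signal value of 284. Its replicate signal values were 66.6, 56.3 and 151 in replicates 1, 2 and 3, at ranks of 7383, 5703 and 2792, so replicate 1 left it out of its top list. A much stronger summit lay in an intron of Rab11, over 1 kb from any start site, with a pooled signal value of 804 and ranks of 636, 750 and 695. No promoter summit of a Vha or Rab gene reached that value.

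Rab8 (FBgn0262518), which serves exocytosis, had a summit 8 bp upstream of its start site with a pooled signal value of 591. Replicate signal values were 204, 146 and 244, at ranks of 1116, 1252 and 1238. Rab1 (FBgn0285937), which carries vesicles from the endoplasmic reticulum to the Golgi, had one 27 bp upstream with a pooled signal value of 455. Its replicate signal values were 201, 83.9 and 160 in replicates 1, 2 and 3, at ranks of 1157, 3116 and 2530. Rab5, Rab8, Rab1, Rab7 and the stronger summit of Rab14 were the Rab promoter summits that all 3 top lists held.

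The remaining Rab promoter summits had pooled signal values from 215 to 344. Rab7, the late endosome Rab, had a summit at its start site with a pooled signal value of 233, in all 3 top lists. Rab9, which serves return from late endosomes to the Golgi, had a signal value of 227 at a summit 909 bp inside the gene, and Rab2, a Golgi Rab, had 215. In replicate 2 no region held the Rab2 summit. RabX1 also had 215, with ranks of 12258, 5718 and 4768. Rab26 and Rab32 were the tissue-limited genes with a promoter summit. Rab26, known from neurons and synaptic vesicles, had a pooled signal value of 344 at a summit in an intron, 343 bp upstream of an internal start site. Its replicate signal values were 72.5, 92.6 and 174 in replicates 1, 2 and 3, at ranks of 6555, 2651 and 2199. Rab32, of pigment granules, had a pooled signal value of 272 and ranks of 3189, 6713 and 5950. Each was thus missing from at least 1 top list.

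Just beyond the end of the optimal set lay Rab40, at pooled rank 6234, and Rab21, at 6733. Rab35, Rab4 and Rab18 followed, at 7501, 7932 and 9374. Rab10 and Rab6, both of secretory traffic, ranked only 20509 and 24185 although they are broadly expressed. Rab3-GEF, Rab19, Rab39 and Rab23 ranked from 9735 to 28031. The 5 related genes Rab9D, Rab9Db, Rab9E, Rab9Fa and Rab9Fb on the X chromosome, together with RabX2, RabX5, RabX6 and Rab3-GAP, had no region given to their start sites in any list. Rab30 had none either, since the summits near it were given to a neighbour. Rab3, the synaptic vesicle Rab, had no pooled region at its start site but had an intronic summit more than 1 kb away with a signal value of 225. RabX4 had a weak region in replicate 1 alone, at rank 26285. Rab27, also neuronal, and Rab3GAP1 share their upstream region with another gene and are described with those genes.

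**Figure D2:**
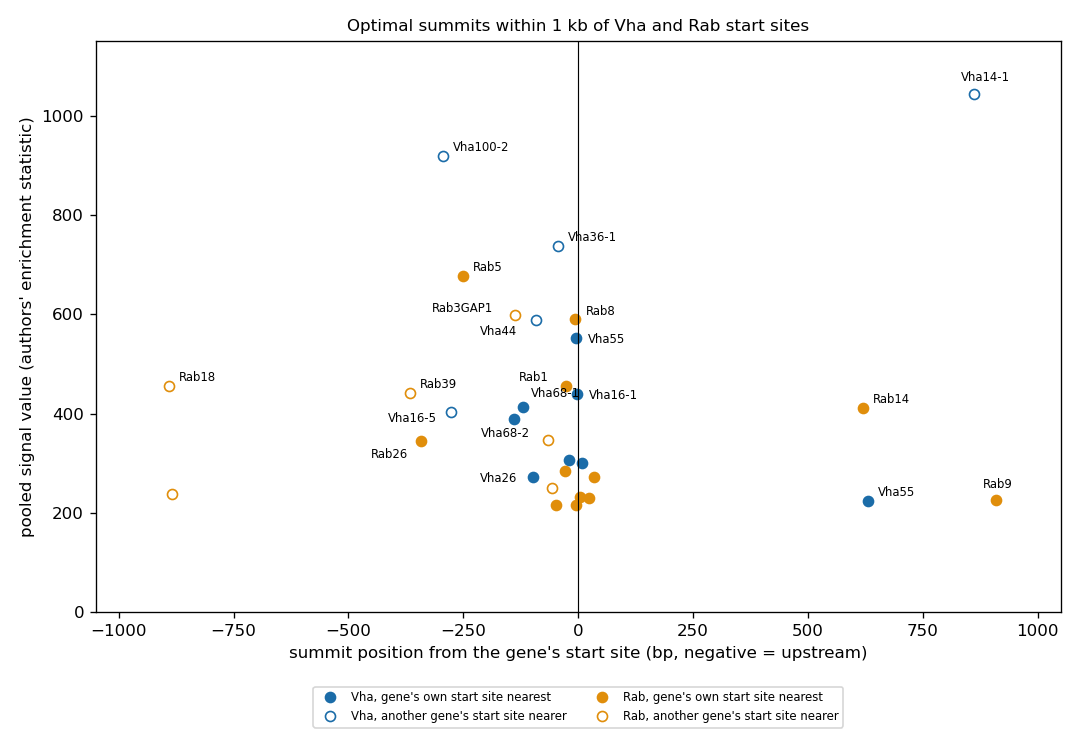
Pooled signal value against the position of every optimal summit within 1 kb of a Vha or Rab start site, in bp with negative values upstream; filled points were given to the gene itself and open points to another gene with a nearer start site. Summits cluster at the start sites, and the highest values, 1043 near Vha14-1 and 918 near Vha100-2, belong to summits nearer to another gene.

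The summits of the 2 families lay close to start sites. For Vha genes 5 of 8 and for Rab genes 8 of 12 lay within 100 bp, together 65%, against 45.6% of summits given to protein-coding genes. The median distance was 59 bp for Vha and 32 bp for Rab genes, against 115 bp. The peaks were of middling strength. The strongest promoter summit per gene had a median signal value of 390 in the 7 Vha genes and 284 in the 11 Rab genes, against 376 over the 2847 protein-coding genes that had one. All 3 top lists held the strongest promoter summit of 5 of 7 Vha genes and 5 of 11 Rab genes, against 69.3% of those protein-coding genes.

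Many members share their upstream region with another gene, which decides how a summit is counted. When a gene was counted if any of its start sites lay within 1 kb of a summit, 11 of 33 Vha genes (33.3%) and 16 of 36 Rab genes (44.4%) had one, against 27.6% of protein-coding genes. Strong peaks entered in this way. The summit near Vha36-1 had a signal value of 737 and lay 45 bp from its start site but 27 bp from that of CG8187. The one at Vha44 had 588 and lay 91 bp away, against 32 bp from Hmgs, an enzyme of the mevalonate pathway. A summit with a signal value of 918 lay 295 bp from an internal start site of Vha100-2 and 228 bp from that of Vti1b, a SNARE protein of endosomes. Each of these was in all 3 top lists.

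On the Rab side, the summit between Rab3GAP1 and CG14352 had a signal value of 598, at 138 and 115 bp. Rab18 entered through a peak at the ribosomal protein gene RpL35 (456), 890 bp from its own start site. Rab39 entered through Pdp (441), Rab30 through Caper (346) and Rab27 through mei-38 (250). Vha14-1 (1043, at 861 bp from its start site and past the end of this short gene) and Vha16-5 (403, at 277 bp) entered through Gmppa and CG12299. The peaks at Rab39 and Vha16-5 were held by no region of replicate 3. Peaks alone cannot tell to which of 2 such genes a site belongs. This limit also covers members counted through their own start sites. Other start sites lay 60 bp (l(2)34Fd) from one of Rab14, 61 bp (Usp32) from one of Rab8 and 78 bp (Mob4) from that of Rab2. Those of Epp and Snx3 lay 92 bp from one of Rab7 and 202 bp from one of Vha55.

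The counts moved with the choice of peaks and start sites. In the 3028 optimal peaks of highest signal value, 4 Vha and 5 Rab genes had a promoter summit, against 12.1% of protein-coding genes. In the 10000 pooled regions of highest signal value, 10 Vha and 17 Rab genes had one, against 27.9%. Windows of 500 bp and 2 kb gave 7 Vha genes each, and 10 and 12 Rab genes, against 18.6% and 21.8%. Start sites of protein-coding genes only, or of all genes without transposable elements and pseudogenes, left 7 and 11, against 20.8% and 20.5%. Peaks held by all 3 top lists were at 5 Vha and 5 Rab genes, against 14.3%. Peaks held by 2 given top lists were at 6 Vha and 9 Rab genes without replicate 1, 5 and 7 without replicate 2, and 6 and 5 without replicate 3, against 15.7%, 16.0% and 15.8%.

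The 2 families were then compared in each replicate's own top list. Here each replicate's own summits were given to start sites, whereas most replicate ranks above are of regions that held a pooled summit. The 2 can differ, so that Vha26 was counted in no replicate and Rab7 not in replicate 2. Promoter summits were found at 9, 8 and 5 of 33 Vha genes in replicates 1, 2 and 3, and at 9, 9 and 14 of 36 Rab genes. The mean share was 22.2% ± 6.31 for Vha genes and 29.6% ± 8.02 for Rab genes (SD, n = 3), against 20.5% ± 1.07 of protein-coding genes (21.7%, 20.4% and 19.5%). The difference, Vha minus Rab, was 2.27, -0.758 and -23.7 percentage points, a mean of -7.41 ± 14.2 (SD, n = 3), which is smaller than its own spread (exact two-sided sign-flip permutation test over replicates, p = 0.75). In lists of this length it rested on replicate 3, without which the mean was 0.758. The difference depended on the length of the lists. With the top 12112 regions it was -4.8, -11.4 and -11.1 percentage points in replicates 1, 2 and 3, a mean of -9.09 ± 3.72 (SD, n = 3), so the Vha share was lower in each replicate and the mean exceeded its spread (exact two-sided sign-flip permutation test, p = 0.25, the smallest that 3 replicates allow). With the top 3028 regions it was -1.77, 7.07 and -7.83 percentage points, a mean of -0.842 ± 7.49 (SD, n = 3; exact two-sided sign-flip permutation test, p = 0.75). Mean shares with the top 12112 regions were 35.4% for Vha and 44.4% for Rab genes, against 31.4% of protein-coding genes. With the top 3028 regions they were 12.1% for Vha and 13.0% for Rab genes, against 12.1%. The top list of replicate 3 held Rab1, Rab2, Rab5, Rab7, Rab8, Rab9, Rab11, Rab14, Rab21, Rab26, Rab27, Rab32, Rab40 and RabX1, and Vha16-1, Vha55, Vha68-1, Vha68-2 and VhaM9.7-c.

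Paralogues were classed as broadly expressed (15 Vha and 12 Rab genes) or tissue-limited (10 Vha and 12 Rab genes) from general knowledge of the families, and 20 genes were left unclassed. The tissue-limited class includes Rab9D, Rab9Db, Rab9E, Rab9Fa, Rab9Fb and RabX2, which were classed as low or restricted in expression with no tissue named. None of these had a region given to its start site in any list, which lowers the share of the class. Earlier results of these data were known when the classes were set, so the comparison of classes was not blind to the peaks. Expression itself was not measured here. In the optimal set 13 of 27 broadly expressed genes (48.1%) and 2 of 22 tissue-limited genes (9.09%) had a promoter summit, against 20.4% of protein-coding genes. The order was the same in each family, with 6 of 15 broadly expressed and 0 of 10 tissue-limited Vha genes, and 7 of 12 broadly expressed and 2 of 12 tissue-limited Rab genes. With any start site within 1 kb, 17 broadly expressed (63.0%) and 4 tissue-limited genes (18.2%) had one, against 27.6% of protein-coding genes. Of the unclassed genes 3 of 20 had one, namely VhaM9.7-c, Rab9 and RabX1.

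The order of the 2 classes was the same in every replicate's own top list. Promoter summits were found at 15, 11 and 11 of 27 broadly expressed genes in replicates 1, 2 and 3, and at 1, 2 and 3 of 22 tissue-limited genes. Of all protein-coding genes, 21.7%, 20.4% and 19.5% had one in the same lists. The shares averaged 45.7% ± 8.55 for broadly expressed and 9.09% ± 4.55 for tissue-limited genes (SD, n = 3), and the difference of broadly expressed minus tissue-limited was 51.0, 31.6 and 27.1 percentage points. Its mean of 36.6 ± 12.7 (SD, n = 3) exceeded the spread between replicates (exact two-sided sign-flip permutation test, p = 0.25, the smallest that 3 replicates allow). The genes of the 2 classes also differed in length, with medians of 3338 bp for broadly expressed and 1452 bp for tissue-limited genes. When protein-coding genes were split into 10 classes of length, 23.0% had a promoter summit in the class that holds the median of the broadly expressed genes and 14.1% in that of the tissue-limited genes. The part of length in the difference was not tested.

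**Figure D3:**
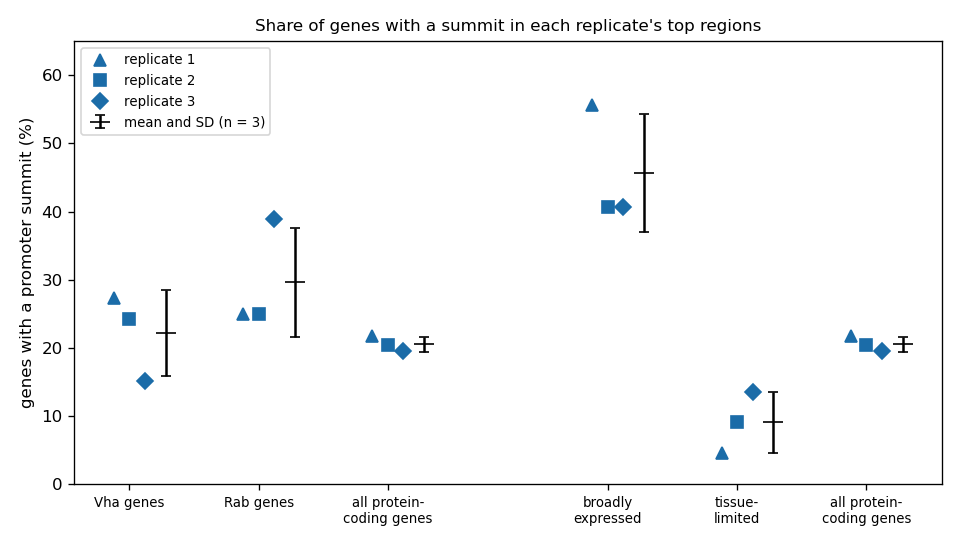
Percentage of genes with a promoter summit in the 6056 top regions of each replicate (symbols), with mean and SD over 3 replicates, for Vha, Rab and all protein-coding genes, and for broadly expressed and tissue-limited members beside all protein-coding genes. Broadly expressed members lie between 40.7% and 55.6% and tissue-limited members between 4.55% and 13.6%, without overlap, whereas Vha and Rab genes lie farthest apart in replicate 3, at 15.2% and 38.9%.

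The full pooled list, optimal peaks included, showed the same order. Of 27 broadly expressed genes 24 had some region of the 30000 given to a start site (88.9%), and of 22 tissue-limited genes 5 had one (22.7%), against 44.1% of protein-coding genes. These counts include the 13 and 2 genes with an optimal promoter summit. Weaker regions only were found at 11 broadly expressed and 3 tissue-limited genes, against 3300 of 13945 protein-coding genes. The 3 broadly expressed genes without a region were Vha14-1, Vha36-1 and VhaM9.7-b. The tissue-limited genes with one were Rab26, Rab32, Vha100-1, VhaAC39-2 and Vha100-4, of which the last 3 lay far below the optimal set in the pooled list. In replicate 2, however, Vha100-1 ranked 5848, inside the top list, and was counted there with Rab26.

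The sequences were searched on both strands for 8 motifs within 100 bp of each promoter summit. TATCGATA, the DNA replication-related element of housekeeping promoters, lay at none of 8 Vha and 3 of 12 Rab summits (Rab8, Rab7 and Rab2), against 5.6% of all summits given to a start site. GGTCACAC, part of the core promoter element Ohler 1, lay at Vha68-2 and at the Rab14 summit by its start site, against 4.38%. ACACTG, which shares 4 letters with it where the 2 run together, lay at 2 of 8 Vha and 4 of 12 Rab summits, against 19.3%. In the Vha68-2 run the 2 overlap in this way on the reverse strand. ACANNTGT, the palindrome known for Iroquois proteins, lay at none of 8 Vha and 2 of 12 Rab summits (Rab8 and RabX1), against 10.8%. In both it overlaps CAGCTG, an E-box, found at 3 of 20 member summits against 12.6%. TATAAA lay at 5 of 20, against 30.3%.

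The counts depended on the width searched. Within 200 bp of the summits, ACACTG lay at 5 of 8 Vha and 6 of 12 Rab summits (55.0% of the 20), against 30.3% of all summits given to a start site. TATCGATA lay at 1 Vha and 4 Rab summits there (25.0%), against 8.59%, and CACGTG at 2 Vha and 2 Rab summits, against 5.81%. GGTCACAC lay at 3 of 20, against 7.21%, ACANNTGT at 3 of 20, against 20.5%, CAGCTG at 5 of 20 (25.0%), against 23.6%, and TATAAA at 9 of 20, against 1886 of 3770.

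CACGTG is the core of the CLEAR element, through which Mitf, the fly homologue of TFEB, is known to act on V-ATPase and lysosomal genes. It lay at 1 Vha summit, that of Vha55 (63 bp from the summit, in the transcribed part that is not printed), and at 1 Rab summit, against 3.13% of all. At Rab5 it formed the full TCACGTGA, 80 bp from the summit and 331 bp upstream of the nearest start site, the first capitals in the Rab5 run. That sequence lay at 6 of 3770 summits given to a start site (0.159%). Within 200 bp it lay at 2 of 20 member summits, 1 of each family, against 0.239%. These counts are of single sites and describe letters only.

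Promoters were also searched whatever their peaks, from 250 bases before to 50 after each start site. TCACGTGA lay in 2 of 33 Vha promoters, those of Vha44 and Vha68-2, and in none of 36 Rab promoters, against 0.201% of 13945 protein-coding genes. The Vha68-2 match lay outside the 100 bp around its summit. CACGTG lay in 5 Vha promoters (15.2%) and 1 Rab promoter (2.78%), against 5.3%, and TATCGATA in 2 Vha (6.06%) and 11 Rab promoters (30.6%), against 10.2%. ACACTG lay in 15 of 27 broadly expressed (55.6%) and 3 of 22 tissue-limited promoters (13.6%), against 22.9% of protein-coding genes. ACACTG is labelled a 6-mer of the peaks and was chosen with earlier results of these data known, so these shares are not independent of the peaks. TATCGATA lay in 29.6% of broadly expressed and 9.09% of tissue-limited promoters, against 10.2%, and GGTCACAC in 29.6% of broadly expressed and 4.55% of tissue-limited ones, against 8.71%. ACANNTGT ran the other way, in 7.41% of broadly expressed and 22.7% of tissue-limited promoters, against 16.9%. Genes with several start sites had more bases searched.

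**Figure D4:**
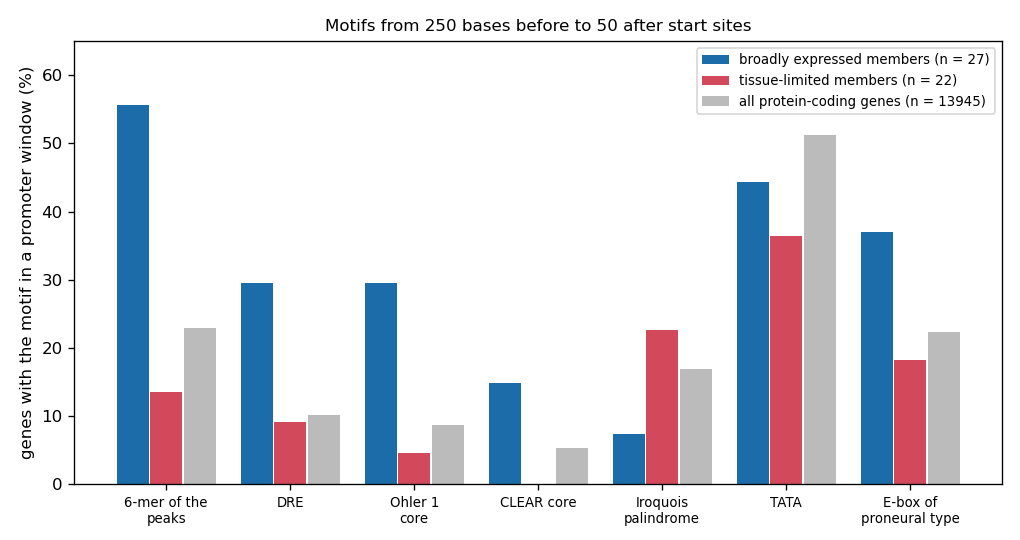
Percentage of genes with each of 7 motifs in a promoter window of 300 bases, for broadly expressed members, tissue-limited members and all protein-coding genes, whatever their peaks. The bars start at 0; ACACTG, labelled 6-mer of the peaks, is at 55.6% in broadly expressed members and 13.6% in tissue-limited ones, while the Iroquois palindrome is at 7.41% in broadly expressed and 22.7% in tissue-limited members.

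Genes that work with both families were listed by role, and 42 of 45 names were found in the annotation. Of 15 Rab regulators 8 had a promoter summit (53.3%), against 20.4% of protein-coding genes. Mon1 (1101), part of the complex that activates Rab7, and Rbsn-5 (931), a partner of Rab5, had the highest signal values among them. The 3 regulators that are themselves members, Rab3-GAP, Rab3-GEF and Rab3GAP1, had no promoter summit. Of 15 effectors and tethers 2 had one (13.3%), Vps33B (1158), which serves tethering at endosomes, and nuf (698), a partner of Rab11. Rbsn-5 was filed under regulators although it is a Rab partner like nuf, so the shares of these 2 lists depend on how such genes were filed. Of 12 V-ATPase assembly and lysosome genes 1 had one (8.33%), Lamp1, a lysosomal membrane protein, at 224, in the top list of 1 replicate. The other regulators with a promoter summit lay between 271 and 424. Mon1, Rbsn-5, Vps33B and nuf were in all 3 top lists and exceeded every promoter summit given to a Vha or Rab gene.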

How the data were processed

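The authors deposited lists of regions for dm6 and dm3, per the labels and the deposited notes. The dm6 lists were used: 1 for each replicate, called against a control alignment, 1 from pooled alignments and the optimal set kept by irreproducible discovery rate. The dm3 lists were not used here. The deposited signal value is the authors' enrichment statistic. Which aligner, peak caller and threshold made them is not given in the sources used here. The deposited offset, another unit in bp, gave the summit. The optimal set equals the 6056 pooled regions of highest signal.

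Summits were given to the nearest of 29807 start sites (Ensembl release 115; ties to each gene) within 1 kb, with pandas 2.3.3 under Python 3.11.15. On simulated data, 200 of 200 summits reached the right start site. Shares were compared between families and classes over 3 replicates by an exact sign-flip permutation test. Genes were not treated as replicates. The members, classes, lists and motifs were chosen with earlier results of these data known. Every member is named, with values in each replicate for the 6 strongest of each family. From the list of other pathway genes, up to 4 of highest signal value are named, and Lamp1 was named after its value was seen. Alternatives changed the peak set, the window, the start sites, the replicates and the length of the top lists.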

Additional observations from a re-analysis of the deposited data

How the results depend on the processing

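Counts of genes with a promoter summit were 7 for Vha, 11 for Rab, 13 for broadly expressed and 2 for tissue-limited genes. The share of broadly expressed genes with a promoter summit was above that of tissue-limited genes under all 14 alternatives run for both. Over these settings the share of protein-coding genes ran from 12.1% to 27.9%. Many of the alternatives use the same peaks, so they are not independent of each other. With the 3028 peaks of highest signal value the counts were 4 for Vha, 5 for Rab, 8 for broadly expressed and 1 for tissue-limited genes. With any start site within 1 kb they were 11 for Vha and 4 for tissue-limited genes, and with 10000 pooled regions 17 for Rab. With peaks in all 3 top lists they were 5 for Rab and 0 for tissue-limited genes. Counting unclassed genes as tissue-limited gave 5 of 42. The top list of replicate 1 alone gave 1 tissue-limited gene. Requiring both remaining replicates, with 1 left out in turn, gave 5 to 6 Vha, 5 to 9 Rab (7 without replicate 2 and 5 without replicate 3), 10 to 11 broadly expressed and 0 to 1 tissue-limited genes. Rab26 was missing without replicate 2 and Rab32 without replicate 1, and both without replicate 3. The Vha minus Rab difference ranged from -12.2 to 0.758 percentage points with 1 replicate left out and was reversed without replicate 3. It was -0.842 with 3028 and -9.09 with 12112 top regions, and with 12112 it was negative in each replicate. For broadly expressed minus tissue-limited it ranged from 29.4 to 41.3 with 1 replicate left out, and was 25.4 with 3028 and 50.3 with 12112 top regions. Any of the 8 motifs lay at 15 of 20 member summits within 100 bp and at 18 within 200 bp. Leaving out transposable elements and pseudogenes, added after seeing the data, changed no count by over 1.5 times. No paired analysis was possible because there is 1 group of samples, so none could be paired across groups. The differences between sets of genes were taken within each replicate. The cause of these changes was not tested. The depth of the lists is unknown, so a missing region may be weak rather than absent.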

Other observations

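At promoters shared by 2 genes, the replicates placed the summit of the same peak differently. The peak at Vha26 had its pooled summit 98 bp from the Vha26 start site, and the replicate 2 region that held it ranked 1645. The summits of the regions given to Vha26 itself ranked 8159, 23050 and 12132 in replicates 1, 2 and 3. The start site of noi lies 304 bp from that of Vha26. At Rab3GAP1 the region of replicate 1 was given to Rab3GAP1 at rank 1710, and in replicates 2 and 3 none was, although regions ranked 749 and 1267 held the same pooled summit. At Rab27 only replicate 3 gave a region to the gene, at rank 5657.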
